A study of Mus musculus with 4 samples.

Results

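The genes of glycolysis and the pentose phosphate pathway were examined in LSK cells that lack SRC-3. The set was fixed by name as 36 genes of glucose uptake, the steps from glucose to lactate, the kinases that gate pyruvate, the regulator Hif1a and the pentose phosphate pathway, and 32 of them were measured, of 22180 genes in all. Where several probe sets were assigned to a gene and to no other, the brightest on average stood for it. Aldoa and Tkt had only a probe set shared with another gene, and Gpi1 and Eno1 had none in the annotation used, so these 4 were not analysed here.

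The KO group held 2 samples from SRC-3 knockout mice and the WT group 2 from wild-type mice, all males of 8 weeks. LSK cells are bone marrow cells that carry Sca1 and c-Kit but no lineage markers. They are enriched for hematopoietic stem cells and multipotent progenitors and were sorted by flow cytometry after lysis of red cells. One Affymetrix array was run per sample, and the question was which genes differ in these cells without SRC-3, a coactivator of nuclear receptors encoded by Ncoa3. The labels call the samples biological replicates without saying how many mice each one pooled. Without separate mice behind them, p-values would cover the scatter of these 4 arrays alone, and part of that scatter may be technical. The sources used here do not give the mouse strain or the part of the gene removed.

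Glycolysis splits glucose into pyruvate in the cytosol with a small yield of ATP. The pentose phosphate pathway branches off after the first phosphorylation and supplies NADPH for reduction and ribose phosphate for nucleotides. Long-term stem cells in the marrow are known to rely on glycolysis and to keep pyruvate out of mitochondria through pyruvate dehydrogenase kinases, with HIF-1, whose oxygen-regulated subunit is Hif1a, as an activator of many of these genes.

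Values are log2 expression levels as the authors deposited them, and a difference is KO minus WT on that scale, so a positive one means a higher level in KO. The median gene on the arrays had a level of 4.32, and 30 of the 32 measured genes of the set lay at or above it, the exceptions being Pfkfb4 and Pdk4. Ncoa3 was at 5.35 and 5.09 in the KO arrays, against 7.76 and 7.05 in the WT arrays, a difference of -2.19 ± 0.27 (SE, limma adjusted p = 0.038). That adjusted p was 0.72 without KO array 1 and 0.55 without KO array 2. Kit, Ptprc, Cd34, Cd48 and Slamf1 were measured as surface markers, and of these only Kit, which encodes c-Kit, is in the LSK definition above. Of these 5 markers, 3 had a lower and 2 a higher mean in KO, each without overlap and none past the adjusted threshold. Without overlap, 22.9% of all genes were lower in KO and 25.1% higher. Among genes at or above the median gene, where all 5 markers lay, those shares were 24.7% and 34.4%. Kit was at 9.43 and 9.34 in KO against 10.33 and 9.65 in WT. Cd34 was at 10.15 and 10.08 in KO against 10.86 and 10.73 in WT. Ptprc was at -0.74, while Cd48 and Slamf1 were at 0.14 and 0.18. Ly6a, which encodes Sca1, was not analysed here. Of 5 measured lineage markers, Cd3e, Cd8a and Ly6g lay below the median gene on every array, and Cd4 and Itgam above it. Itgam, a myeloid integrin, was at 4.80 and 5.06 in KO against 6.50 and 5.78 in WT, a difference of -1.21 (adjusted p = 0.11).

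The WT arrays differed from each other at many of these genes. The absolute difference between the WT arrays had a median of 0.32 over the 32 genes, against 0.08 between the KO arrays. Over all 22180 genes those medians were 0.23 for WT and 0.15 for KO. Of the 18 genes from glucose uptake to pyruvate, 17 were higher on WT array 1 than on WT array 2, beside 46.6% of all genes and 59.2% of those at or above the median level. Both KO arrays lay between the WT arrays for 9 of these 18 genes, beside 16.0% of all genes and 18.6% of those at or above the median level. Handling stress markers, 8 immediate early genes such as Fos and Egr1, were higher on WT array 1 than on WT array 2 in 7 of 8 cases and had a lower mean in KO in 8 of 8. Both KO arrays lay below both WT arrays for 5 of the 8, beside 22.9% of all genes and 24.7% of those at or above the median level. Their summed linear level was 5679.5 and 5619.4 in the KO arrays against 10765.8 and 5612.9 in the WT arrays. In that sum bright genes weigh most, such as Jun, at 10.75 and 10.72 in KO against 11.71 and 10.28 in WT. The part of these markers in the results was not tested. Some markers of erythroid and myeloid cells differed between the groups too. Of 9 erythroblast markers 5 were measured, all higher in KO without overlap, beside 25.1% of all genes, and 3 of them, Rhag, Ermap and Klf1, rose past the adjusted threshold, beside 0.397% of all genes. All 8 neutrophil markers had a higher mean in KO, 7 of them without overlap and none past that threshold. Of all genes 25.1% were higher without overlap, and 34.4% of those at or above the median level. Their differences ran from 0.06 for Mpo, which overlapped, to 1.80 for Camp, with a median of 0.84. Their summed linear level was 7879.0 and 7896.6 in KO against 7323.2 and 5674.0 in WT. The bright genes Mpo and Elane, the latter at a difference of 0.53, weigh most in it, so the sum says little about the dimmer markers. The myeloid genes Itgam and Ly6g, listed with the lineage markers, had lower means in KO, at -1.21 and -0.06. Of 6 macrophage markers, 4 had a higher and 2 a lower mean in KO, the lower ones being Cd68 at -0.26 and Lyz2 at -0.10. Slc40a1, at 1.605 (limma adjusted p = 0.034), was the 1 past that threshold, beside 0.397% of all genes. The other higher means were smaller, with differences of 0.15 for Adgre1, 0.18 for Csf1r and 0.34 for Vcam1. The part of such erythroid and myeloid cells in the differences below was not tested. In a sorted bulk sample more cells of a type and more RNA per cell cannot be told apart.

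The genes chosen for printing here all had an unadjusted p under 0.05 in limma. Promoters are shown for Rpia and Rpe of the pentose pathway, the glucose transporter Slc2a1, the fructose bisphosphate regulator Pfkfb4 and the glycolytic kinase Pgk1. Each runs from 250 bases before to 50 bases after an annotated transcript start, 5′ to 3′ on the gene's strand, from RefSeq on GRCm38.p6. Capitals mark ACGTG or GCGTG, the core letters of the HIF-1 response element, on either strand.
Rpia, chr6:70792126-70792425, minus strand: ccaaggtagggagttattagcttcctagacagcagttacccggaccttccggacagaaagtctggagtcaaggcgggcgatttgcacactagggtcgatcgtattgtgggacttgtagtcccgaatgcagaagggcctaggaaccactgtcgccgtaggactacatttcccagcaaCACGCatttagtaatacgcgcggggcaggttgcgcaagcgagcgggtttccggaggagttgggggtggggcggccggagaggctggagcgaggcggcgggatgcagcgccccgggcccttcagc
Rpe, chr1:66700581-66700880, plus strand: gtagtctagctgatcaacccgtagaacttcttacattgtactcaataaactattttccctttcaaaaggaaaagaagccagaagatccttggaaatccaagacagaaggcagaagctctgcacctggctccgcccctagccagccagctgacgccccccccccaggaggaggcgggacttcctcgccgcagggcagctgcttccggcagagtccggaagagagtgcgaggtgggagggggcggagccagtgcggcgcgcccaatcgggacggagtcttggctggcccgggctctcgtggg
Slc2a1, chr4:119108495-119108794, plus strand: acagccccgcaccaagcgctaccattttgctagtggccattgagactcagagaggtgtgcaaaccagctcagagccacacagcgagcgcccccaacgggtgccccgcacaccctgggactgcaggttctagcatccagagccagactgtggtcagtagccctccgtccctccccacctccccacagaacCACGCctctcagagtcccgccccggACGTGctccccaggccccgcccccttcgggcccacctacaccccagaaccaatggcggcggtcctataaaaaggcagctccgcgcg
Pfkfb4, chr9:108991652-108991951, plus strand: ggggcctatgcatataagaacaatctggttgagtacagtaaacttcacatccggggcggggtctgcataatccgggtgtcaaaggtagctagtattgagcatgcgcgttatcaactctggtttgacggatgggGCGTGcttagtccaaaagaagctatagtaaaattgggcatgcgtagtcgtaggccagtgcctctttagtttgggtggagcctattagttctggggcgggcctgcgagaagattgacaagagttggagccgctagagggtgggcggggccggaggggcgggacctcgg
Pgk1, chrX:106186850-106187149, plus strand: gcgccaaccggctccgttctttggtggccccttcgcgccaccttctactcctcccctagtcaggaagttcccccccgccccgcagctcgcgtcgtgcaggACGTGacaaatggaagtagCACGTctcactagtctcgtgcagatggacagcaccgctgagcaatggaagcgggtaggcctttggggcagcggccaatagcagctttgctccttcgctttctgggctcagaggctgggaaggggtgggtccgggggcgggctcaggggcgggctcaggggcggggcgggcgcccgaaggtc

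Of the measured genes, 31 had a promoter in that table, Slc2a3 being the exception. ACGTG or GCGTG stood in a promoter of 28 of these 31 genes, or 90.3%, against 46.7% of all 27025 genes with a promoter and 67.2% of the 8811 whose level was that of the median gene or more. ACGTG overlaps with the E-box CACGTG, which stood in promoters of 6 of the 31. The promoter of Slc2a1 held 2 matches, that of Pgk1 2, those of Rpia and Pfkfb4 1 each and that of Rpe 0. Pdk2 was the other gene of the set at an unadjusted p under 0.05 in limma. Its promoters, not shown, held 2 and 0 matches. Genes with a higher and with a lower mean in KO were thus both among those with a match. A match describes letters in a window of 300 bases and not a bound site.

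None of the 32 genes passed the threshold of an adjusted p under 0.05 in limma, which 0.509% of all genes passed. At an unadjusted p under 0.05, 3 genes were higher in KO, Rpia, Rpe and Pgk1, beside 10.5% of all genes. At the same level 3 were lower, Slc2a1, Pfkfb4 and Pdk2, beside 6.93% of all genes. Both KO arrays lay above both WT arrays for 12 of the 32 genes, beside 25.1% of all genes, and below both for 8, beside 22.9%. That made 20 genes without overlap, beside 48% of all genes. The mean was higher in KO for 19 of the 32, beside 49.7% of all genes. Since 30 of the 32 lay at or above the median gene, the shares among such genes also apply: at an unadjusted p under 0.05, 17.5% were higher in KO and 9.55% lower, with 34.4% higher and 24.7% lower without overlap, and 54.5% with a higher mean. The median difference over the 32 genes was 0.11, against -0.001 over all genes and 0.04 over the brighter part of the array, from the median gene upward. Differences ran from -0.56 for Slc2a1 to 0.87 for Rpia. The steps of the pathway differed in their values. Medians were -0.50 for the 2 glucose transporters, 0.08 for 3 hexokinases and -0.20 for 7 genes of upper glycolysis. Then came 0.18 for 6 genes of lower glycolysis, -0.01 for 4 lactate and monocarboxylate genes and 0.10 for 4 pyruvate dehydrogenase kinases. The 5 genes of the pentose phosphate pathway had a median of 0.48, and the regulator Hif1a was at -0.18. Most of these medians depended on the WT array. Against WT array 1 alone they were -0.84, -0.32, -0.46, -0.02, 0.03, 0.16 and 0.65, in the same order of steps and without Hif1a. Against WT array 2 alone they were -0.16, 0.40, 0.11, 0.48, -0.03, 0.01 and 0.79. No test of one step against another was run.

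**Figure D1:**
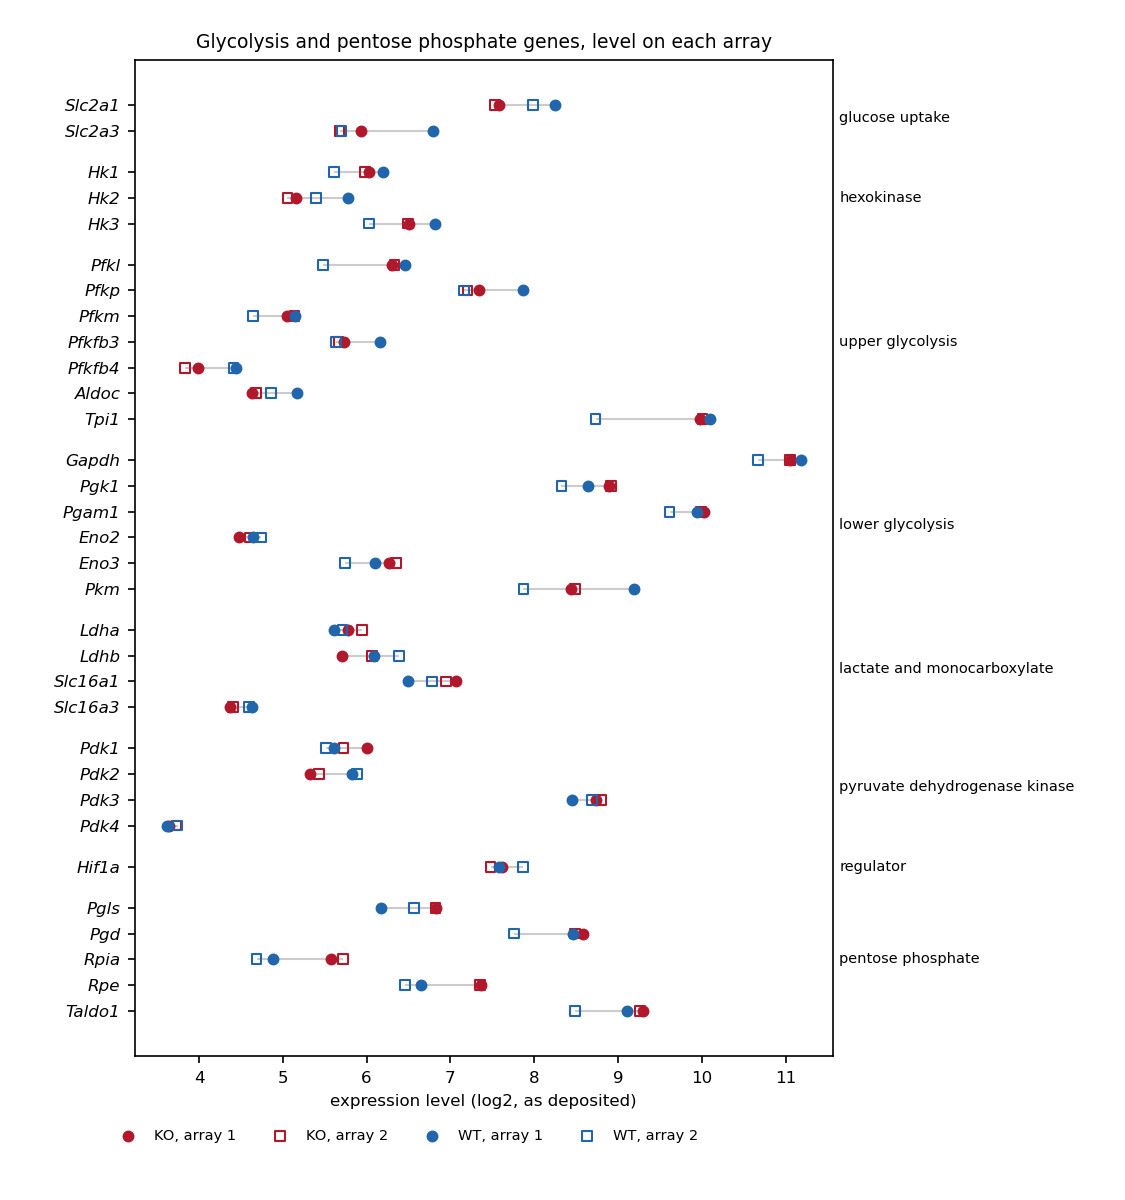
Expression level (log2, as deposited, horizontal axis) of each of the 32 measured genes on each of the 2 KO arrays (red) and the 2 WT arrays (blue), grouped by pathway step. The KO symbols lie close together, while the WT symbols of Tpi1 (10.10 and 8.73) and Pkm (9.20 and 7.87) lie on both sides of them.

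**Figure D2:**
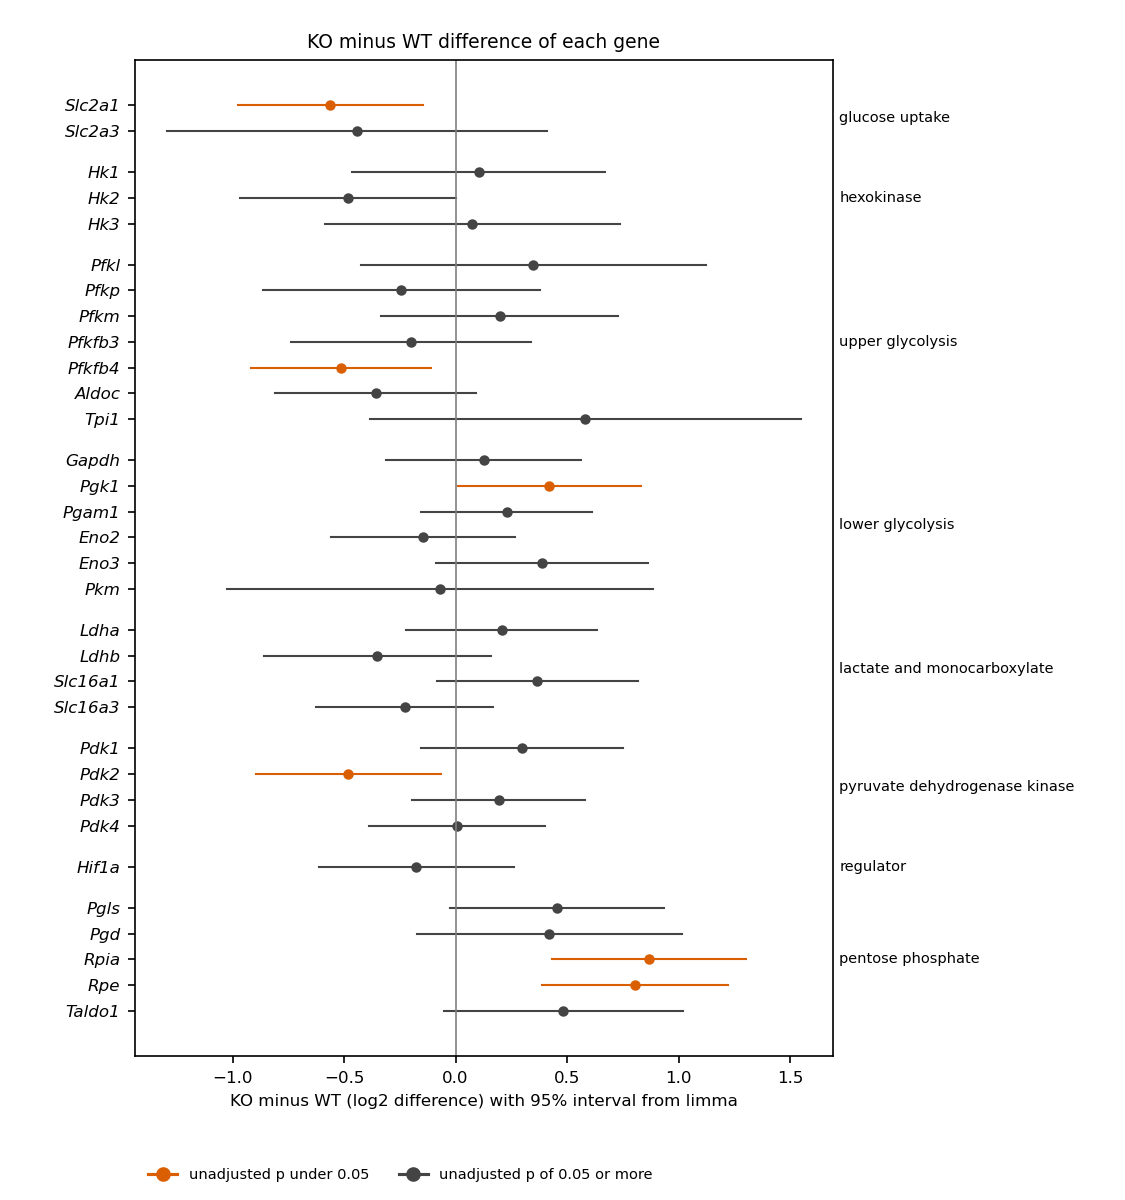
KO minus WT difference (log2, points) of each gene with its 95% interval from limma (lines), grouped by pathway step, with genes at an unadjusted p under 0.05 in orange. All 5 pentose phosphate genes lie to the right of 0, from 0.42 to 0.87, and both glucose transporters to the left.

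The pentose phosphate genes had higher levels in KO at every measured step, with both KO arrays above both WT arrays for 5 of 5, beside 25.1% of all genes and 34.4% of those at or above the median gene. None of the 5 passed the adjusted threshold. Rpia encodes the isomerase that turns ribulose phosphate into ribose phosphate. It was at 5.58 and 5.72 in the KO arrays, against 4.88 and 4.69 in the WT arrays. The groups did not overlap, and the difference was 0.87 ± 0.18 (SE), or 1.82-fold (limma adjusted p = 0.10). Rpe encodes the epimerase that acts on the same ribulose phosphate and makes xylulose phosphate. Its levels were 7.37 and 7.35 in KO against 6.66 and 6.46 in WT, a difference of 0.80 ± 0.17 (SE), or 1.74-fold (limma adjusted p = 0.10). For both genes all KO values lay above all WT values. Both enzymes act on the ribulose phosphate that the oxidative steps yield, and they had the largest positive differences of the 32 genes.

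Pgls encodes the lactonase of the oxidative branch. It was at 6.83 and 6.82 in KO against 6.18 and 6.57 in WT, a difference of 0.45 ± 0.20 (SE, adjusted p = 0.31), and a second, dimmer probe set gave 0.41. Pgd, the dehydrogenase that yields NADPH and ribulose phosphate, was at 8.58 and 8.48 in KO against 8.46 and 7.76 in WT, a difference of 0.42 ± 0.25 (SE, adjusted p = 0.45). The KO arrays thus lay just above WT array 1 and well above WT array 2. Taldo1, the transaldolase that returns carbon to glycolysis, was at 9.30 and 9.26 in KO against 9.11 and 8.49 in WT, a difference of 0.48 ± 0.22 (SE, adjusted p = 0.33). Its gap to WT array 1 was likewise the smaller one. Without WT array 1 limma called Rpia, Rpe, Pgd and Taldo1 higher in KO, at differences of 0.96, 0.90, 0.77 and 0.79. Without WT array 2 it called Pgls and Rpe, at 0.65 and 0.70, so Rpe was called against either WT array alone. In these fits the lone WT array is assumed to vary like the KO arrays. Of the 32 genes 10 were called without WT array 1, beside 7.91% of all genes, and 6 without WT array 2, beside 13.5%. With either KO array left out limma called none of the 32 and none of all genes, although at an unadjusted p under 0.05, 837 genes were higher and 634 lower without KO array 1, and 974 were higher and 936 lower without KO array 2.

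Both glucose transporters had lower means in KO. Slc2a1, which encodes GLUT1, was at 7.58 and 7.53 in KO against 8.24 and 7.99 in WT, and the groups did not overlap. The difference was -0.56 ± 0.17 (SE), 1.48-fold lower in KO (limma adjusted p = 0.18). A second, dimmer Slc2a1 probe set was at 3.76 and 3.56 in KO against 3.72 and 3.77 in WT, with a difference of -0.09 ± 0.17 (SE), and averaging both gave -0.33. Slc2a3, which encodes the high-affinity transporter GLUT3, was at 5.93 and 5.68 in KO against 6.79 and 5.70 in WT. WT array 2 lay with the KO arrays there, and the difference of -0.44 ± 0.35 (SE, adjusted p = 0.59) rested on WT array 1. Without WT array 2 limma called Slc2a1 at -0.69 and Slc2a3 at -0.99. Without WT array 1 they were at -0.43 and 0.10, and neither was called.

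Hexokinases trap glucose in the cell by phosphorylation. Hk2, the inducible isoform, was at 5.16 and 5.06 in KO against 5.78 and 5.40 in WT, a difference of -0.48 ± 0.20 (SE, adjusted p = 0.29) with no overlap. Hk1, the isoform of most tissues, was at 6.03 and 5.99 in KO against 6.20 and 5.61 in WT. Hk3 was at 6.50 and 6.49 in KO against 6.81 and 6.03 in WT. For both Hk1 and Hk3 the KO arrays lay between the WT arrays, and the small positive difference of Hk3 turned to -0.0069 after quantile normalization. Differences between isoforms taken within each array leave out shifts common to both probe sets, and they show unequal change rather than which isoform is more abundant. Hk1 minus Hk2 was 0.87 and 0.93 in KO against 0.42 and 0.21 in WT, so it was higher by 0.59 in KO without overlap. Of the 9 isoform pairs examined, 6 did not overlap between the groups. Of all single genes 48% did not overlap, and the share over other gene pairs was not computed. In each of the 6 pairs the exact two-sided permutation p was 0.33, the smallest that 2 against 2 arrays allow.

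Phosphofructokinase commits sugar to glycolysis. Its isoforms Pfkl, Pfkp and Pfkm, named for liver, platelet and muscle, all had both KO arrays between the WT arrays. Pfkl was at 6.31 and 6.33 in KO against 6.46 and 5.48 in WT. Pfkp was at 7.34 and 7.21 in KO against 7.87 and 7.16 in WT. Neither differed beyond the WT spread, yet Pfkl minus Pfkp was -1.03 and -0.87 in KO against -1.41 and -1.68 in WT, a within-array difference 0.59 higher in KO without overlap. Pfkm was at 5.05 and 5.14 in KO against 5.15 and 4.64 in WT.

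Pfkfb3 and Pfkfb4 encode bifunctional enzymes that set the level of the sugar phosphate that activates phosphofructokinase. Pfkfb4 was at 3.99 and 3.83 in KO against 4.44 and 4.41 in WT, a difference of -0.52 ± 0.17 (SE), 1.43-fold lower in KO (limma adjusted p = 0.19). The groups did not overlap, and the KO levels lay below that of the median gene. Pfkfb3 was at 5.73 and 5.67 in KO against 6.16 and 5.63 in WT, with the KO arrays inside the WT range. Within each array Pfkfb4 minus Pfkfb3 was -1.74 and -1.83 in KO against -1.71 and -1.22 in WT, lower in KO by a narrow margin. Aldoc, an aldolase isoform best known from brain, was at 4.63 and 4.68 in KO against 5.16 and 4.86 in WT, a difference of -0.36 ± 0.19 (SE, adjusted p = 0.39). Tpi1, the triose phosphate isomerase, was at 9.98 and 10.01 in KO against 10.10 and 8.73 in WT. Its difference of 0.58 ± 0.40 (SE, adjusted p = 0.52) rested on WT array 2, without which it was -0.10, and without WT array 1 limma called it at 1.26.

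In lower glycolysis Pgk1, the kinase of the first step that returns ATP, was at 8.90 and 8.91 in KO against 8.64 and 8.33 in WT. The groups did not overlap, and the difference was 0.42 ± 0.17 (SE), or 1.34-fold (limma adjusted p = 0.28). Pgam1, the phosphoglycerate mutase, was at 10.03 and 9.99 in KO against 9.95 and 9.61 in WT, a difference of 0.23 ± 0.16 (SE, adjusted p = 0.53). Its second probe set had a difference of 0.60 ± 0.36, and after quantile normalization the difference of Pgam1 was 0.09. Eno3, the muscle enolase, was at 6.26 and 6.35 in KO against 6.10 and 5.74 in WT, a difference of 0.39 ± 0.20 (SE, adjusted p = 0.38). Eno2, the neuronal enolase, was at 4.48 and 4.61 in KO against 4.64 and 4.74 in WT. KO was thus higher without overlap for Pgk1, Pgam1 and Eno3, and lower without overlap for Eno2.

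Gapdh, the dehydrogenase often used as a loading control, was at 11.05 and 11.05 in KO against 11.18 and 10.67 in WT, a difference of 0.13 ± 0.18 (SE, adjusted p = 0.79). Its other probe sets gave 0.09 and 0.11, and after quantile normalization the difference was -0.024. Gapdh has many processed copies in the mouse genome, so its probe sets may share signal with them. Pkm, the pyruvate kinase of most tissues outside liver and red cells, was at 8.44 and 8.49 in KO against 9.20 and 7.87 in WT. The WT arrays lay 1.32 apart, against 0.05 for the KO arrays, and the difference of -0.07 ± 0.40 (SE, adjusted p = 0.96) was far inside that spread. Against WT array 1 alone limma called Pkm lower in KO, at -0.73 (adjusted p = 0.010), and against WT array 2 alone it called Pkm higher, at 0.59 (adjusted p = 0.028).

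**Figure D3:**
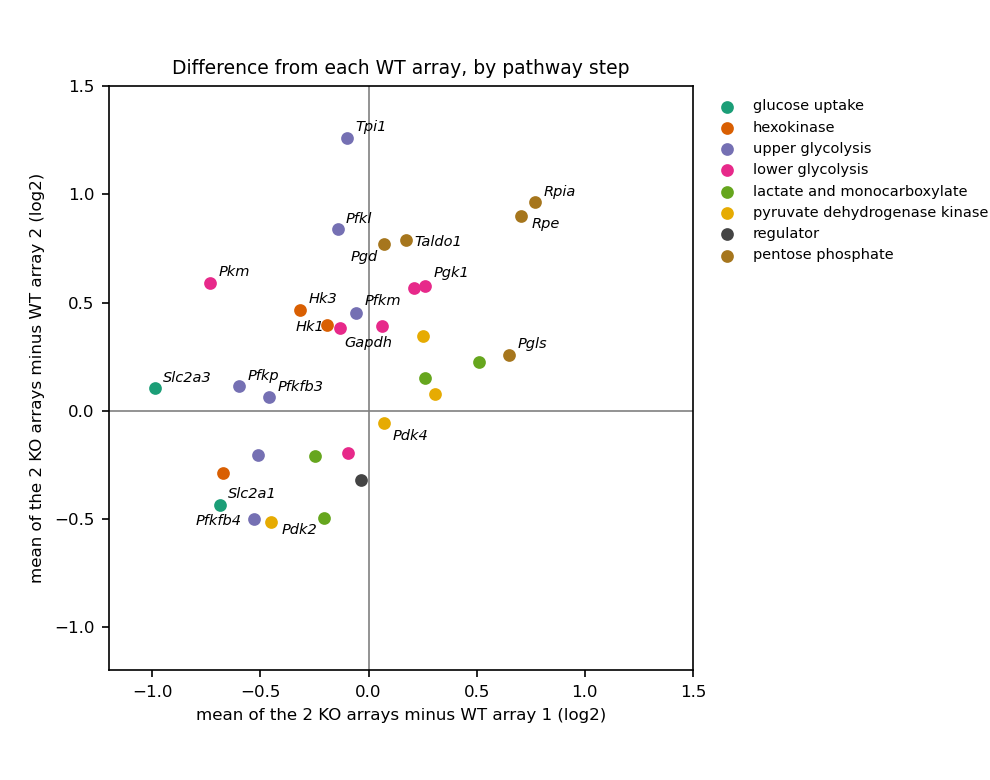
Mean of the 2 KO arrays minus WT array 1 (log2, horizontal axis) and minus WT array 2 (log2, vertical axis) for each of the 32 genes (points), coloured by pathway step. Both axes share the KO arrays. Pentose phosphate genes lie at positive values on both axes, while Tpi1 (-0.10 and 1.26) and Pkm (-0.73 and 0.59) change sign between them.

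Lactate dehydrogenase interconverts pyruvate and lactate. Ldha, the subunit of the form that favours lactate, was at 5.78 and 5.95 in KO against 5.61 and 5.71 in WT, a difference of 0.21 ± 0.18 (SE, adjusted p = 0.62). Ldhb, the heart type subunit, was at 5.71 and 6.07 in KO against 6.09 and 6.39 in WT, a difference of -0.35 ± 0.21 (SE, adjusted p = 0.46). Neither overlapped between the groups. Within each array Ldhb minus Ldha was -0.07 and 0.12 in KO against 0.49 and 0.67 in WT, a change of -0.56 without overlap.

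The monocarboxylate transporters carry lactate and pyruvate across the cell membrane. Slc16a1, which encodes MCT1, was at 7.07 and 6.94 in KO against 6.50 and 6.78 in WT, a difference of 0.37 ± 0.19 (SE, adjusted p = 0.38). Slc16a3, which encodes the lactate exporter MCT4, was at 4.37 and 4.40 in KO against 4.63 and 4.60 in WT, a difference of -0.23 ± 0.16 (SE, adjusted p = 0.54). Their differences had opposite signs. Slc16a3 minus Slc16a1 was -2.70 and -2.54 in KO against -1.86 and -2.19 in WT, a change of -0.60 without overlap. None of these transporter or dehydrogenase genes reached an unadjusted p under 0.05.

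Pyruvate dehydrogenase kinases switch off the enzyme that feeds pyruvate into mitochondria. Pdk2 was at 5.33 and 5.43 in KO against 5.83 and 5.89 in WT, a difference of -0.48 ± 0.17 (SE), 1.40-fold lower in KO (limma adjusted p = 0.23). The groups did not overlap, and replicates lay close together. Pdk1, the isoform known as a HIF-1 target, was at 6.01 and 5.72 in KO against 5.61 and 5.52 in WT, a difference of 0.30 ± 0.19 (SE, adjusted p = 0.48). Its second probe set overlapped, at 5.46 and 4.81 in KO against 3.96 and 5.01 in WT. Within each array Pdk2 minus Pdk1 was -0.68 and -0.30 in KO against 0.21 and 0.37 in WT, the largest shift of the 9 pairs at -0.78. Pdk3 was at 8.73 and 8.79 in KO against 8.45 and 8.69 in WT. Pdk4, the isoform of fasting, lay below the median gene, at 3.64 and 3.73 in KO against 3.62 and 3.74 in WT.

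Hif1a itself was at 7.62 and 7.48 in KO against 7.58 and 7.87 in WT. The groups overlapped, and the difference was -0.18 ± 0.18 (SE, 95% interval -0.61 to 0.26, adjusted p = 0.69). A second, dim probe set gave -0.17. The protein is controlled mainly by oxygen-dependent degradation, which arrays do not measure. Among 8 genes that regulate HIF-1, none was called. Meis1, a homeobox factor of stem cells, was at 7.71 and 7.60 in KO against 8.74 and 8.24 in WT, a difference of -0.84 ± 0.21 (SE, adjusted p = 0.13). The prolyl hydroxylases Egln1 and Egln3, which mark HIF subunits for degradation, were at 0.32 ± 0.18 and -0.28 ± 0.17.

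Among 12 measured HIF-1 target genes outside glycolysis, the median difference was 0.05 and none was called. Vegfa, the vascular growth factor, was at 7.11 and 6.89 in KO against 8.33 and 7.48 in WT, a difference of -0.91 ± 0.29 (SE, adjusted p = 0.19). Bnip3, a mitophagy receptor, was at 5.63 and 5.48 in KO against 5.08 and 5.12 in WT, and Car9, a carbonic anhydrase, at 6.51 and 6.28 in KO against 6.77 and 6.99 in WT. With the probe sets of Car9 averaged its difference was -0.23, against -0.48 for the brighter one. Known HIF-1 targets thus lay on both sides of 0, with Slc2a1, Vegfa and Car9 lower and Pgk1 and Bnip3 higher in KO, none past the adjusted threshold.

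The other genes of the pathway came from a list of 72 genes, of which 64 were measured, and 2 rose and 0 fell past the adjusted threshold, beside 0.397% and 0.113% of all genes. At an unadjusted p under 0.05, 13 were higher and 5 lower in KO, beside 10.5% and 6.93% of all genes, and the median difference was 0.12. Since 48 of the 64 lay at or above the median gene, the shares among such genes also apply, 17.5% higher and 9.55% lower. Pklr, the pyruvate kinase of liver and red cells, was at 6.61 and 6.69 in KO against 5.02 and 4.92 in WT. It rose by 1.68 ± 0.17 (SE), or 3.21-fold (limma adjusted p = 0.023), while Pkm, the isoform of most other tissues, had WT levels on both sides of the KO levels. Its adjusted p was 0.62 without KO array 1 and 0.51 without KO array 2. The 5 measured erythroblast markers were higher in KO alongside Pklr, with a summed linear level of 622.3 and 584.0 in KO against 127.4 and 95 in WT. The part of such cells in the Pklr result was not tested.

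Minpp1, an inositol polyphosphate phosphatase that also acts on the bisphosphoglycerate of red cells, rose by 1.24 ± 0.17 (SE), or 2.36-fold, to 6.59 and 6.67 in KO against 5.36 and 5.43 in WT (limma adjusted p = 0.0498). Its adjusted p was 0.0585 with a replicate block and 0.0504 after quantile normalization, both above the threshold. It was 0.73 without KO array 1 and 0.55 without KO array 2, and with its 2 probe sets averaged the difference was 0.53 (adjusted p = 0.19). Tigar, a phosphatase that steers sugar phosphates to the pentose pathway, was at 5.74 and 5.72 in KO against 5.26 and 5.42 in WT (adjusted p = 0.32). Bpgm, the mutase of red cells, was at 4.56 and 4.12 in KO against 4.13 and 3.91 in WT and overlapped.

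In the other pentose phosphate genes, Rbks, the ribokinase that phosphorylates free ribose, was at 8.41 and 8.52 in KO against 7.40 and 7.53 in WT. The difference was 1.0 ± 0.16 (SE, adjusted p = 0.064), and the adjusted p was 0.044 when genes dimmer than the median gene were dropped. Prps1 and Prps2, which make the activated ribose for nucleotides, were at 0.03 ± 0.16 and 0.36 ± 0.20. Tktl1, a transketolase relative, was at -0.35 ± 0.19 and Shpk, the sedoheptulose kinase, at -0.21 ± 0.17. Both were lower in KO without overlap, beside 22.9% of all genes. Tktl1 was dim, at 2.41 and 2.01 in KO against 2.63 and 2.50 in WT, all below the median gene. H6pd, which runs the oxidative steps in the endoplasmic reticulum, overlapped at 0.04 ± 0.26. The median over these 8 genes was 0.03, and the next highest value after Rbks was that of Prps2. G6pdx, the first enzyme of the pathway, was not analysed here.

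Genes for the fate of pyruvate had a median of 0.41 over 13 members, none past the adjusted threshold. Without adjustment 6 were higher and 1 lower at p under 0.05, beside 10.5% and 6.93% of all genes. Among genes at or above the median gene, where 11 of the 13 lay, those shares were 17.5% and 9.55%. The 6 were Mpc1, Pcx and 4 genes of the pyruvate dehydrogenase complex that the kinases above act on, Pdha1, Pdhb, Pdhx and Dld, at 0.49, 0.38, 0.54 and 0.48, these last named after their values were seen. Mpc1, a subunit of the carrier that takes pyruvate into mitochondria, was at 8.86 and 8.86 in KO against 7.47 and 8.16 in WT, a difference of 1.05 ± 0.24 (SE, adjusted p = 0.12), or 0.64 with its probe sets averaged. Pcx, the pyruvate carboxylase, was at 5.04 and 4.53 in KO against 4.20 and 3.67 in WT (adjusted p = 0.18). Slc16a7, which encodes MCT2, was at 5.66 and 5.43 in KO against 6.07 and 6.25 in WT, a difference of -0.61 ± 0.19 (SE, adjusted p = 0.18). Of the branches to gluconeogenesis and glycogen, Pgm2, a sugar phosphate mutase, was at 0.63 ± 0.15, Fbp1, the fructose bisphosphatase, at 0.64 ± 0.20, and Pygb, a glycogen phosphorylase, at -0.60 ± 0.21, none past the adjusted threshold. In wider glucose uptake and trapping, Hkdc1 was at -0.40 ± 0.19, Adpgk at 0.35 ± 0.21 and Slc2a8 at 0.27 ± 0.17.

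**Figure D4:**
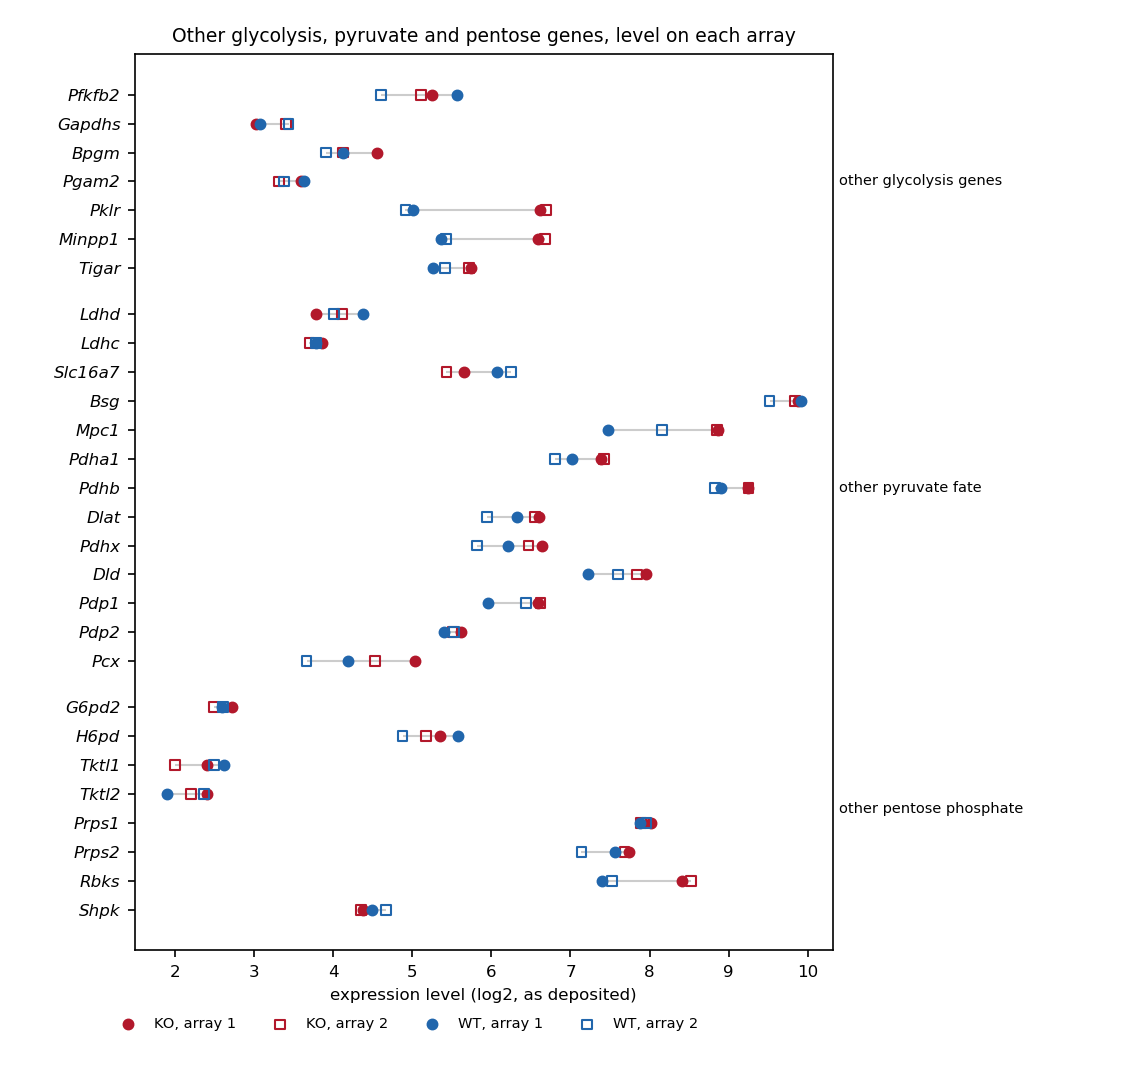
Expression level (log2, as deposited, horizontal axis) of the other measured glycolysis, pyruvate and pentose phosphate genes on each of the 2 KO arrays (red) and the 2 WT arrays (blue). Pklr (6.61 and 6.69 in KO against 5.02 and 4.92 in WT) and Minpp1 (6.59 and 6.67 against 5.36 and 5.43) show the gap between groups that passed the adjusted threshold.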

How the data were processed

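Log2 levels of 41345 probe sets on 4 arrays, 2 KO and 2 WT, were used as the authors deposited them. Per the submitters' processing notes, RMA and Affymetrix Expression Console 1.2.1 were used. The sources used here give no settings, filters or genome build, and the log2 scale was taken from the values. No scanner files, detection calls or scan dates were used, so no batch was tested. The platform annotation gave 1 gene symbol to 23521 probe sets, and the probe set with the highest mean represented each gene. KO minus WT was fitted over all 22180 genes in limma 3.58.1 (R 4.3.3) with an intensity trend. P-values are two-sided, Benjamini-Hochberg adjusted over the 22180 genes, and calls were made under 0.05. Errors are moderated SEs. No test was run over a list. The fit was tested on simulated data with independent errors of the same size in both groups. That test does not cover the unequal spread of these WT and KO arrays. The members and lists were chosen with earlier results of these data known. Named genes were every member, and of each wider sublist up to 3 genes of smallest p and any past the threshold. Bpgm, Prps1, Shpk, H6pd, the pyruvate dehydrogenase genes and the marker lists were added for context after their values were seen. Alternatives were each array left out, a replicate block, quantile normalization, no trend, averaged probe sets and dropping genes dimmer than the median gene. With 4 arrays the precision is limited by the number of arrays, and a sequencing depth does not apply.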

Additional observations from a re-analysis of the deposited data

How the results depend on the processing

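Of the 32 genes, 21 kept their direction under every alternative run for them and 11 did not. There were 9 alternatives, except for Pfkfb4 and Pdk4, which dropping dim genes removed. All 5 pentose phosphate genes kept a higher mean in KO, at differences from 0.071 to 0.96. For these 5, as for any gene without overlap between the groups, leaving out an array cannot change the direction. A replicate block, no trend and dropping dim genes leave the difference itself unchanged. Only quantile normalization and averaged probe sets could thus have changed the direction of such genes. After quantile normalization Hk3 was at -0.0069 and Gapdh at -0.024. Leaving out 1 array at a time, the difference ran from -0.99 to 0.10 for Slc2a3, -0.19 to 0.40 for Hk1, -0.32 to 0.47 for Hk3, -0.14 to 0.84 for Pfkl, -0.60 to 0.11 for Pfkp, -0.057 to 0.45 for Pfkm, -0.46 to 0.063 for Pfkfb3, -0.10 to 1.26 for Tpi1, -0.13 to 0.38 for Gapdh, -0.73 to 0.59 for Pkm and -0.058 to 0.071 for Pdk4. The median of the 32 genes ran from -0.099, without WT replicate 2, to 0.24, without WT replicate 1.

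The count called was 0 among the 32 genes in limma with all arrays kept, under each setting, while 3 higher and 3 lower had an unadjusted p under 0.05 as reported. With each array left out it ran from 0 to 10, being 10 without WT replicate 1 and 6 without WT replicate 2. Over all genes it was 113, of which 88 were higher and 25 lower, and 93 higher and 61 lower after quantile normalization. It was 289 when genes dimmer than the median gene were dropped, so that fewer were tested, and from 0 to 3002 with each array left out. In the wider list it was 2, and 1 with a replicate block, with mean probe sets or after quantile normalization, Minpp1 being lost each time and Pklr staying called, and 3 with dim genes dropped, Rbks being gained, and from 0 to 13 with each array left out. The replicate block left 0 of the 32 genes called and 111 over all genes. The labels tie same-numbered samples by nothing but the number, so they were not treated as pairs. Their deviations correlated at 0.11 over genes, which 2 pairs cannot settle either way. The cause of these changes was not tested.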
